A study of Homo sapiens with 26 samples.

Results

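The abundant long noncoding RNAs (lncRNAs) of HCT116 cells were followed here across IGF2BP1 variants and arsenite stress. A gene was taken when the annotation typed it as lncRNA and when it exceeded 10 CPM in at least 3 of the 24 libraries from cells with mCherry-IGF2BP1. CPM here means reads of a gene per unit of library size, so that libraries of unequal depth can be set side by side. Small nucleolar RNA host genes (symbols beginning SNHG, and GAS5, EPB41L4A-AS1 and ZFAS1) were left out. This left 146 genes of the 18731 lncRNA genes and 63086 genes of all types in the count files, and 22 host genes met the level but were left out. The members were chosen by their level, so the levels are a description, and a gene over 10 CPM in 1 group of libraries only had to differ between groups. Of the 146, 57 were over 10 CPM in all 24 libraries, 24 only in control libraries, 8 only in arsenite libraries, 11 only in WT and RQ libraries, 8 only in S181E and Y396E libraries and 8 in exactly 3 libraries. Just inside the limit, the third-highest library of BCAN-AS2 was at 10.07 CPM and that of HHLA3 at 10.32, and just outside it CRYBB2P1 was at 9.91 and HERPUD2-AS1 at 9.89.

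HCT116 is a human colorectal carcinoma line. In the sequenced cells IGF2BP2 and IGF2BP3 had been knocked out, a doxycycline-controlled OsTIR1 gene had been added, and lentivirus had delivered mCherry-tagged IGF2BP1. The 4 populations, each sorted through a narrow fluorescence gate, carried wild type protein (WT), a phosphomimetic change in the first linker (S181E) or in the second linker (Y396E), or glutamines in place of arginines of the first linker (RQ). Each was grown as PBS control and with 500 µM sodium arsenite for 2 h, with 3 libraries from separately plated dishes in each of the 8 groups. Parental HCT116 without transgene gave 1 control and 1 arsenite library, which were kept out of every test. As each variant was read in 1 sorted population, the variant and the population cannot be told apart.

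The RNA was poly(A) RNA from a cleared detergent lysate, so RNA that stays in the pellet was not measured. Total counts ran from 22508145 to 50834401 per library, and the members took 0.308 to 0.457% of them. IGF2BP1 was at 9.93 to 45.0 CPM in the 24 libraries against 0.315 and 0.658 in the parental ones. By group it was at 11.3 (WT), 17.6 (S181E), 15.5 (Y396E) and 13.4 (RQ) CPM in control. With arsenite it was at 27.5, 40.8, 40.7 and 44.3 CPM, and the part of these levels in the differences below was not tested. RNA of IGF2BP2 (58.6 to 85.5 CPM) and IGF2BP3 (102.5 to 156 CPM) was present in all 24 libraries, so RNA levels do not show their knockout. The epithelial markers EPCAM, KRT8, KRT18, KRT19 and CDH1 were at 23.5 CPM or more in every library. The leukocyte gene PTPRC and the fibroblast gene DCN were at 0 in 23 libraries each, and the fibroblast collagen COL1A1 was at 6.2 to 10.8 CPM. The share of counts on the mitochondrial genome was 21.1 to 27.9% in WT and RQ control, 11.7 to 17.1% in S181E and Y396E control and 7.5 to 13.5% in arsenite. Its part in the differences below was not tested. Y396E arsenite replicate 3 held counts on 13897 genes against at least 20850 in every other library. Of the members, 63 differed in it by more than 0.5 (log2) from the mean of the other 2 libraries of its group, against 0 to 3 for each library of the other 7 groups.

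lncRNAs are transcripts with no long reading frame, many of them capped, spliced and polyadenylated like mRNA. Some stay in the nucleus, as NEAT1, the scaffold of paraspeckles, and MALAT1, which collects in nuclear speckles. Others work in the cytoplasm, as NORAD, which binds Pumilio proteins, and some mainly give rise to microRNAs cut from their introns or exons. Many start next to a coding gene and run the opposite way from a shared promoter region. The mature end of MALAT1 and of the long NEAT1 isoform carries no poly(A) tail, so poly(A) libraries count only part of their RNA. TUG1 is a well-known lncRNA that the annotation used here types as protein coding, and it is not among the 146.

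Promoter sequences are shown for members that rose with arsenite (MALAT1, TBC1D22A-DT) and for members that fell (NORAD, OIP5-AS1). RefSeq (GRCh38.p14) gave 250 bases before and 50 after the start for 83 of the 146. The windows of MALAT1 and TBC1D22A-DT both hold TGACGCAGC, in capitals, from 51 and 58 bases before the start. Capitals mark matches, on either strand, to the antioxidant response element TGACNNNGC, the site of NRF2, or to the metal response element TGCNCNC, the site of MTF1. In MALAT1 the first run of capitals is an overlap of both elements, and in TBC1D22A-DT the first run is an overlap of a pair of metal response elements.
MALAT1, chr11:65497488-65497787, plus strand: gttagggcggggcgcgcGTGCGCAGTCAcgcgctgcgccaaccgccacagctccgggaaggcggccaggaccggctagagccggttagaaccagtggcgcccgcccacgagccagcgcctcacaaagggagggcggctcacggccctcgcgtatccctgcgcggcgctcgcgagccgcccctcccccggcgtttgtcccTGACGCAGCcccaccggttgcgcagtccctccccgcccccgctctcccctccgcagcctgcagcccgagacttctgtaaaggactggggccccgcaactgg
TBC1D22A-DT, chr22:46762479-46762778, minus strand: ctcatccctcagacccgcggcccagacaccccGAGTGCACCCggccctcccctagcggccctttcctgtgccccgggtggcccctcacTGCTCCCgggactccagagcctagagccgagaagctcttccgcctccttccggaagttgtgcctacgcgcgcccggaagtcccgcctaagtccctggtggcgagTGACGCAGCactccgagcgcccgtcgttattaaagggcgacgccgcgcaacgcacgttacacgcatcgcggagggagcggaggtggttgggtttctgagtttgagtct
NORAD, chr20:36050911-36051210, minus strand: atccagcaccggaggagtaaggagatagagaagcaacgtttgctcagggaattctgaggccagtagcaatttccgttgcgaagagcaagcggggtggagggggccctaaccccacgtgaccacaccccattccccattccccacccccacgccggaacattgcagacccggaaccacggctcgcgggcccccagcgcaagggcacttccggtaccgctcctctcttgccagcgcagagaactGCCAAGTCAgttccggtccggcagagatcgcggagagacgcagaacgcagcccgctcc
OIP5-AS1, chr15:41283740-41284039, plus strand: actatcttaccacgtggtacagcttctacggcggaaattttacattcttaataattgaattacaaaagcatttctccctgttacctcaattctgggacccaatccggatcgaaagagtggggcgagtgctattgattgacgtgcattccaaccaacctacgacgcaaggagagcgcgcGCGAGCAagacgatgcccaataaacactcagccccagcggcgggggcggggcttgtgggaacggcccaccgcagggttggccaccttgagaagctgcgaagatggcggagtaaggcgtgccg
In NORAD the capitals begin 8 bases before the start, and in OIP5-AS1 72 bases before it. TGACNNNGC occurred in 14.5% of the member windows (12 of 83) and in 13.6% of all 27305. Of the 12 members with it, 3 were higher and 5 lower with arsenite in WT, with a median log2 change of -0.08 against -0.58 in the 71 without it. TGCNCNC was in 66.3% of member windows and 55.2% of all, and 4 of its 55 members were higher and 38 lower. The heat shock element GAANNTTC was in 4.82% of member windows and 6.87% of all, AP-1 (TGANTCA) in 13.3% and 7.76%, CRE (TGACGTCA) in 1 of 83 and 1.98%, the ATF4 and CHOP element (TGATGNAA) in 2.41% and 3.67%, and the TATA box (TATAAA) in 6.02% and 11.9%. These are matches of letters, not sites shown to be bound.

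Several members are hosts of microRNAs, and mature products of hosts named below are shown as a description. By coordinates, 10 members contain 17 of the RefSeq hairpins searched. This count is a lower limit, as not every member was searched. The hairpins searched also had no entry for miR-22, so MIR22HG is not among the 10. Capitals mark the seed, bases 2 to 8.
hsa-miR-29a-3p, in LINC-PINT: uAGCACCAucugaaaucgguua
hsa-miR-29b-3p, in LINC-PINT: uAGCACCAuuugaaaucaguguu
hsa-miR-15a-5p, in DLEU2: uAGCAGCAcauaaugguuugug
hsa-miR-16-5p, in DLEU2: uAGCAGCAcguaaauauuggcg
hsa-miR-100-5p, in MIR100HG: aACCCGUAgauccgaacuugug
hsa-let-7a-5p, in MIR100HG: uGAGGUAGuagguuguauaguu
hsa-miR-125b-5p, in MIR100HG: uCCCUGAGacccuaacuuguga
hsa-miR-23a-3p, in MIR23AHG: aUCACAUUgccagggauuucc
hsa-miR-27a-3p, in MIR23AHG: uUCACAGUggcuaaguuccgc
hsa-miR-4435, in CYTOR and MIR4435-2HG: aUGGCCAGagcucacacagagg
The 2 products of LINC-PINT share the seed AGCACCA, and those of DLEU2 share AGCAGCA. The libraries measured the host transcripts and no mature microRNA.

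Members were at a mean of 4.70 to 303.1 CPM over the 24 libraries, with a median of 13.8, on scaled totals. Per kb of exon, ENSG00000289850 (chromosome 6, 144922315 to 144929987, plus strand) was the highest at 571.9 CPM per kb, with 305.1 to 1073 over the libraries. UCA1, a lncRNA known from urothelial and colorectal cancer, came next at 85.6 CPM per kb (63.3 to 110.9), and its libraries lay below all those of ENSG00000289850. ENSG00000290032 (57.3, range 38.2 to 81.5), ENSG00000273149 (40.7, 18.8 to 65.7) and ENSG00000250920 (39.8, 21.8 to 67.7) followed, and their ranges overlapped. NORAD (32.5), ELFN1-AS1 (28.5) and MALAT1 (27.2, range 7.26 to 64.9) were close behind per kb. By symbol, 50 members were antisense (-AS), 13 divergent (-DT), 17 LINC genes, 5 microRNA hosts and 32 had other names, and 29 had an identifier only. Exon length ran from 248 to 26060 bases with a median of 4362, and 17 members were a single exon block. FAM86DP, FAM86JP, FAM86C2P, SBDSP1, EBLN3P, ZNF252P, MFSD14CP and OGFRP1 carry symbols of pseudogenes, and their counts are uncertain because reads shared with a near-identical gene were not counted.

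Most abundant lncRNAs were lower after arsenite in all 4 populations. In WT cells 111 of the 146 were lower and 9 higher, with a median log2 change of -0.62. Of all 9735 tested genes, 35.6% were lower and 36.7% higher. NORAD, NEAT1, CYTOR and OIP5-AS1 each fell by more than 1 on the log2 scale, whereas MALAT1 and 8 others rose. A gene was called when the adjusted p of edgeR's quasi-likelihood test was under 0.05 and the fold over 1.2. As RNA of whole cultures was measured, less RNA per cell and fewer cells with it cannot be told apart.

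The other populations gave similar counts. In S181E, 94 members were lower and 12 higher (median -0.51), where 33.4% of all genes were lower and 32.4% higher. In Y396E, 101 were lower and 18 higher (-0.49), against 32.9% and 33.3% of all genes, and 106 and 13 without Y396E arsenite replicate 3. Without that replicate 6438 of all 9735 genes were called there, 3228 of them higher. In RQ, 109 were lower and 11 higher (-0.66), against 35.7% and 37.4%. Lower in all 4 populations were 85 members, where 26.3% of all genes were, and 8 were higher in all 4, where 27.9% of all genes were. These 8 were MALAT1, MIR22HG, TBC1D22A-DT, PSMA3-AS1, ENSG00000261889, ENSG00000290032, ENSG00000291203 and ENSG00000291207. Of these, MIR22HG, TBC1D22A-DT, ENSG00000261889, ENSG00000291203 and ENSG00000291207 were over 10 CPM only with arsenite. The choice of members in part set their rises. Another 9 members were called in none of the 4, and 0 were called in opposite directions.

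**Figure D1:**
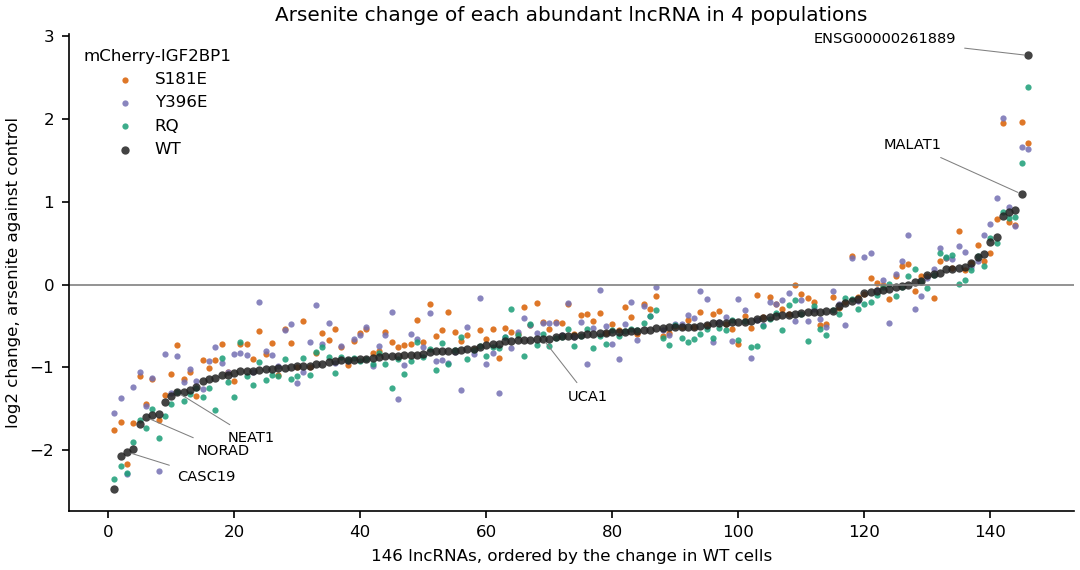
Each point is the log2 change (y axis, arsenite against control, n = 3 libraries per group) of 1 lncRNA in 1 population, with the 146 lncRNAs along the x axis in the order of their change in WT cells. Most points lie below 0 in every population, the median in WT is -0.62, and ENSG00000261889 stands highest at 2.77.

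Lower members also predominated when genes were taken by their mean level, which weights control and arsenite libraries equally. Of the 106 members with a mean over 10 CPM across the 24 libraries, 83 were lower and 4 higher in WT. Of the 9146 genes of all types with a mean over 10 CPM, 36.1% were lower. These genes were not matched to the members by level. On plain library totals, which do not correct for composition, the median of all genes in WT moved by 0.24 and the member calls became 85 lower and 17 higher. They were 89 and 15 in S181E, 93 and 21 in Y396E and 89 and 15 in RQ. Of all 9735 genes, 2195 were then lower and 4688 higher in WT, and 2655 and 3577 in S181E. In Y396E 2552 were lower and 3735 higher, and in RQ 2196 and 4787. The members' median stayed 0.61 below that of all genes in WT under both scalings. The 22 host genes left out by the rule showed 16 lower and 3 higher in WT (median -0.69).

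By symbol, falls were the majority among antisense (36 of 50 lower, 1 higher), divergent (10 of 13, 1 higher), LINC (14 of 17, 0 higher), identifier-only (22 of 29, 4 higher) and other genes (28 of 32, 2 higher) in WT. Of the 5 microRNA hosts by symbol, 1 was lower and 1 higher, with a median of -0.18 against -0.57 to -0.79 in the other classes. Members of a single exon block (11 of 17 lower, 3 higher, median -0.87) and of several blocks (100 of 129 lower, 6 higher, median -0.61) both fell for the most part.

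Among nuclear lncRNAs, MALAT1 and NEAT1 moved in opposite directions, although their genes lie close to each other on chromosome 11. MALAT1 (ENSG00000251562.11, chromosome 11, 65497688 to 65506516, plus strand, promoter shown above) was at 130.4, 164 and 171 CPM in WT control and 339.8, 329 and 322 in WT arsenite. In S181E it was at 57.8, 57.3 and 56.8 CPM in control and 235, 213 and 221 in arsenite. Arsenite libraries were above control libraries without overlap in every population, with log2 changes of 1.09 ± 0.11 (WT), 1.96 ± 0.11 (S181E), 1.66 ± 0.11 (Y396E) and 1.47 ± 0.11 (RQ). The parental libraries were at 114 and 222 CPM. NEAT1 (ENSG00000245532.11, chromosome 11, 65422774 to 65445540, plus strand) was at 149, 180.2 and 185 CPM in WT control and 75.0, 62.6 and 71.2 in WT arsenite. All its arsenite libraries were below their controls, with log2 changes of -1.30 ± 0.10 (WT), -0.73 ± 0.10 (S181E), -0.86 ± 0.10 (Y396E) and -1.29 ± 0.10 (RQ). JPX, an activator of the X-inactivation RNA, changed by -0.46 ± 0.12 in WT and was lower in all 4, though its WT call was lost on plain totals.

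The 4 members listed as cytoplasmic from general knowledge, NORAD, OIP5-AS1, DANCR and CYTOR, were lower in all 4 populations. NORAD (ENSG00000260032.2, chromosome 20, 36045618 to 36051018, minus strand) was at 267, 279.8 and 297 CPM in WT control and 95.3, 90.0 and 92.2 in arsenite, a log2 change of -1.60 ± 0.05 (edgeR adjusted p = 3.93e-18). Its changes in S181E, Y396E and RQ were -1.44 ± 0.06, -1.47 ± 0.05 and -1.74 ± 0.05, and no arsenite library reached a control library of its population. OIP5-AS1, known to sponge the RNA-binding protein HuR, went from 114 ± 7.85 to 51.7 ± 3.35 CPM (SD, n = 3) in WT, or -1.14 ± 0.06. DANCR, known for holding progenitor cells undifferentiated, changed by -1.03 ± 0.06 and fell in all 4 populations. CYTOR (chromosome 2, 87454781 to 87630751, plus strand) was at 20.0, 26.9 and 23.5 CPM in WT control and 8.32, 7.51 and 7.75 in arsenite (-1.58 ± 0.11), and its changes were -1.14, -1.13 and -1.50 in S181E, Y396E and RQ. UCA1, the highest named lncRNA per kb after ENSG00000289850, went from 267 ± 14.8 to 169 ± 4.94 CPM in WT (-0.66 ± 0.05) and fell in all 4.

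**Figure D2:**
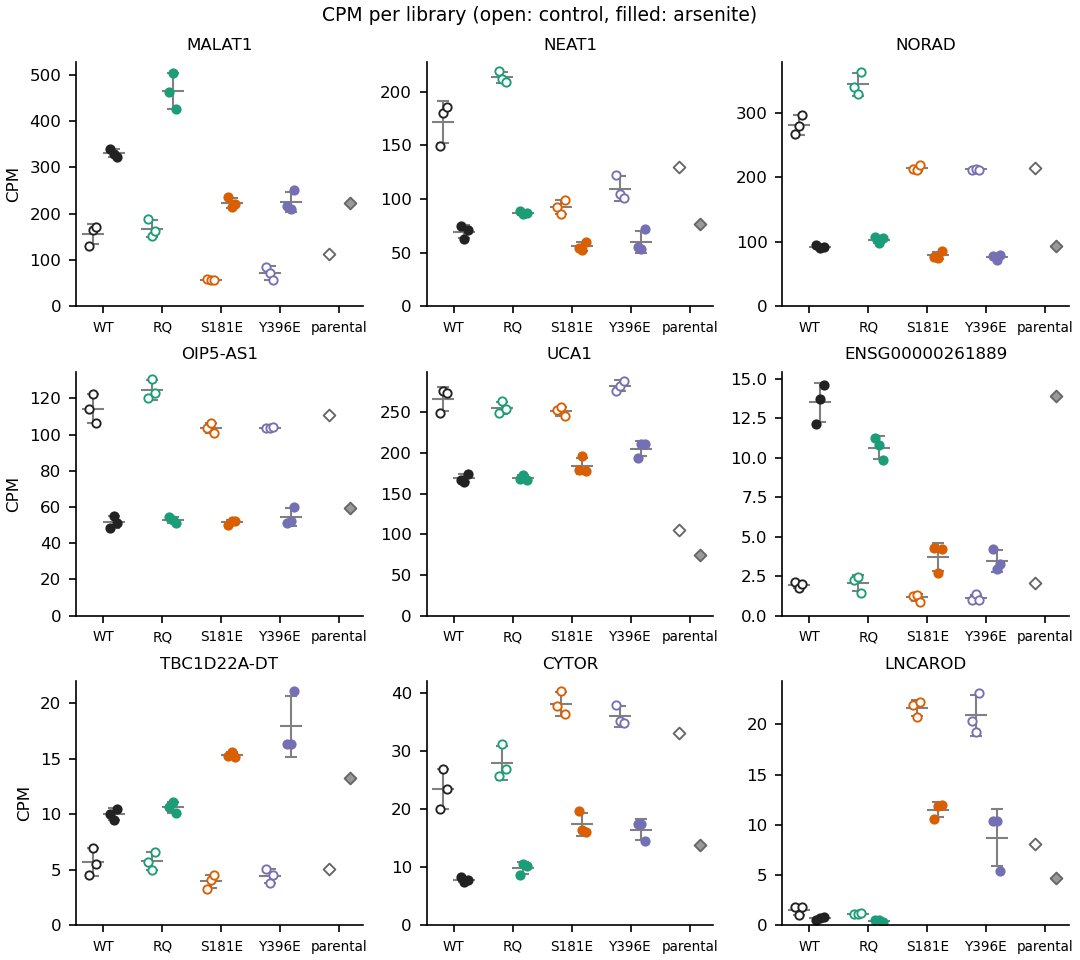
CPM per library (y axis, from 0) of 9 lncRNAs in WT, RQ, S181E and Y396E cells and in parental HCT116 (x axis), open for control and filled for arsenite. Bars give mean ± SD of 3 libraries, the parental diamonds are 1 library each on plain totals, and MALAT1, ENSG00000261889 and TBC1D22A-DT are higher with arsenite while the other 6 are lower.

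The microRNA hosts were split. MIR22HG, from which miR-22 is cut, was at 5.69, 5.88 and 4.97 CPM in WT control and 8.83, 6.84 and 9.03 in arsenite. It rose in all 4 populations, by 0.58 ± 0.18 (WT), 0.79 ± 0.18 (S181E), 1.05 ± 0.18 (Y396E) and 0.50 ± 0.18 (RQ), and in Y396E by 0.76 without arsenite replicate 3. MIR22HG was over 10 CPM only with arsenite, so its rise was in part set by the choice of members. MIR100HG, the host of miR-100, let-7a-2 and miR-125b-1, fell by 0.46 ± 0.05 in WT and was lower in all 4. LINC-PINT, which contains the miR-29 hairpins, changed by -0.46 ± 0.14 in WT and was lower in all 4 as well. The WT calls of both were lost on plain totals, as was that of PVT1, the neighbour of MYC (-0.51 ± 0.06 in WT). PVT1 was not among the members with a listed hairpin, and as the search left members out, this does not show that it holds none. MIR4435-2HG changed by -0.18 ± 0.12 in WT and -0.29 ± 0.12 in RQ, called only in RQ. DLEU2 and MIR23AHG, picked by their hairpins after the values were seen, showed -1.09 ± 0.08 and 0.21 ± 0.16 in WT. DLEU2, host of miR-15a and miR-16-1, was lower in all 4 populations, while MIR23AHG was called only in Y396E (0.39 ± 0.16), and not there without Y396E arsenite replicate 3 (0.14). The stress-linked GABPB1-AS1 changed by 0.18 ± 0.12 in WT and was called higher in Y396E (0.31) and RQ (0.36), though not in Y396E without that replicate (0.17).

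The largest rise was that of a lncRNA with no name. ENSG00000261889 (chromosome 16, 3156736 to 3157483, minus strand, a single exon block of 748 bases) was at 2.15, 1.75 and 2.00 CPM in WT control and 12.1, 13.7 and 14.6 in arsenite. RQ libraries were at 2.23, 2.44 and 1.47 CPM in control and 11.3, 10.8 and 9.83 in arsenite. S181E libraries were at 1.26, 1.34 and 0.891 in control and 4.27, 2.72 and 4.23 in arsenite, below every WT arsenite library. It is over 10 CPM only in WT and RQ arsenite libraries, so its rise was in part set by the choice of members. The same holds for its lower level and smaller rise in S181E and Y396E. The log2 changes were 2.77 ± 0.19 (WT), 2.38 ± 0.19 (RQ), 1.71 ± 0.22 (S181E) and 1.64 ± 0.22 (Y396E), and the parental libraries went from 2.05 to 13.9 CPM.

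TBC1D22A-DT (chromosome 22, 46761893 to 46762564, minus strand), which starts 53 bases from TBC1D22A on the other strand, was at 4.48, 6.97 and 5.51 CPM in WT control and 10.0, 9.45 and 10.5 in arsenite. In Y396E the libraries were at 5.05, 3.75 and 4.51 CPM in control and 16.3, 16.3 and 21.1 in arsenite, all of the latter above the controls. Its rises were 0.83 ± 0.15 (WT), 0.87 ± 0.15 (RQ), 1.96 ± 0.15 (S181E) and 2.01 ± 0.15 (Y396E). ENSG00000290032 (chromosome 6, 27138293 to 27138540, minus strand) lies in the histone cluster and starts 742 bases from H4C9, whose family has near-identical copies. Whether reads of ENSG00000290032 also fit such copies was not checked. It rose by 0.90 ± 0.09 in WT and ENSG00000291207 (chromosome 7, 45723787 to 45769042, minus strand) by 0.87 ± 0.11, and both were higher in all 4 populations. TBC1D22A-DT and ENSG00000291207 were over 10 CPM only with arsenite, so their rises were in part set by the choice of members.

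The deepest falls in WT were those of ENSG00000260328 (-2.47 ± 0.25), CASC8 (-2.07 ± 0.10), CASC19 (-2.02 ± 0.15), LINP1 (-1.98 ± 0.19) and LINC00370 (-1.68 ± 0.10). CASC19 (chromosome 8, 127072694 to 127227541, minus strand), a gene of the colorectal cancer risk region upstream of MYC, was at 37.5, 38.0 and 39.9 CPM in WT control and 8.80, 8.85 and 10.7 in arsenite. In Y396E it was at 18.8, 17.9 and 22.3 CPM in control and 4.60, 4.97 and 2.45 in arsenite. It fell in every population, by 2.17 ± 0.16 in S181E, 2.29 ± 0.16 in Y396E and 2.27 ± 0.15 in RQ. LINP1, known to bind the Ku proteins of DNA end joining, was at 7.93 ± 0.89 CPM in WT control and 2.03 ± 0.34 in arsenite (SD, n = 3). ENSG00000260328 (chromosome 17, 17011914 to 17014990, minus strand) went from 13.0 ± 0.603 to 2.35 ± 0.175 CPM in WT. In Y396E arsenite it was at 1.80, 2.13 and 5.93 CPM, and its change there was -1.55 with and -2.28 without replicate 3. OGFRP1 changed by -1.56 in WT and -2.25 in Y396E, the latter -1.97 without replicate 3. ENSG00000233461 was lower in all 4 populations, with -0.86 in WT and -1.38 in Y396E, the latter -0.96 without replicate 3. ENSG00000260328, CASC8, LINP1, OGFRP1 and ENSG00000233461 were over 10 CPM only in control libraries, so their falls were in part set by the choice of members.

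Genes of 17 proteins that bind, hold or degrade lncRNAs were counted beside the members. With arsenite 15 of the 17 were higher in WT and RQ with 0 lower, and 15 were higher and 2 lower in S181E and Y396E, with a median log2 change of 1.36 in WT. Of all genes 36.7% (WT), 37.4% (RQ), 32.4% (S181E) and 33.3% (Y396E) were higher. In S181E and Y396E control 10 of the 17 were higher than in WT and 0 lower, and their arsenite response was below that of WT for 11 and 10, beside the shares of all genes given with those comparisons below. The paraspeckle proteins NONO (1.36 ± 0.07) and SFPQ (1.47 ± 0.06) rose in WT while NEAT1, their scaffold, fell. The nuclear exosome helicase MTREX (1.81 ± 0.08), its catalytic partner EXOSC10 (1.75 ± 0.07) and the adaptor ZCCHC8 (2.42 ± 0.10) rose too, as did the 5′ exonucleases XRN1 (1.29 ± 0.10) and XRN2 (1.81 ± 0.05). PUM2 (-0.25 ± 0.08), a partner of NORAD, was not called. These are RNA levels, and the proteins were not measured.

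In unstressed cells the S181E and Y396E populations differed from WT at many lncRNAs. In S181E control 50 members were lower and 8 higher than in WT (median -0.19), where 15.2% of all genes were lower and 16.3% higher. In Y396E control 43 were lower and 7 higher (-0.19), against 14.0% and 14.8%. MALAT1, NEAT1 and ENSG00000289850 were lower, and LNCAROD, LINC02331, LINP1, MIR4435-2HG and CYTOR higher. The split depends on the scaling: on plain library totals it was 22 lower and 27 higher in S181E and 22 and 24 in Y396E, as the median of all genes moved by 0.24 and 0.20. Of all 9735 genes, 524 were then lower and 4353 higher in S181E, and 529 and 3747 in Y396E. Relative to all genes the members' median was lower by 0.21 and 0.20 under both scalings. The comparisons share the WT libraries, so S181E and Y396E are given side by side and not as independent support.

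Of the lower members, MALAT1 was at 57.3 ± 0.49 CPM in S181E, 71.4 ± 14.4 in Y396E and 155 ± 21.6 in WT (SD, n = 3), log2 differences of -1.44 ± 0.11 and -1.12 ± 0.11 from WT. No S181E or Y396E library reached a WT library in either treatment. NEAT1 differed by -0.89 ± 0.10 and -0.65 ± 0.10, and NORAD by -0.39 ± 0.05 and -0.41 ± 0.05. ENSG00000289850, the highest member, was at 275, 278 and 261 CPM in S181E and 449, 569 and 486 in WT control (-0.89 ± 0.07), and at -0.79 ± 0.07 in Y396E. ZNF503-AS1 (-1.10 and -0.98), LNCOC1 (-1.21 and -1.08), GAS6-AS1 (-1.01 and -0.82) and CASC19 (-0.78 and -0.96) were lower in both. ZNF503-AS1, LNCOC1 and GAS6-AS1 were over 10 CPM only in WT and RQ, so the choice of members in part set their differences. ENSG00000250920 (-0.75 and -0.56) was lower too. OIP5-AS1, DANCR, UCA1, MIR100HG, MIR22HG and PVT1 were called in neither, with differences between -0.16 and 0.09. In parental control ZNF503-AS1 was at 3.37 CPM and UCA1 at 105, against 13.1 ± 1.56 and 267 ± 14.8 in WT.

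The 10 members on chromosome 8 had lower medians in these populations than the rest. In S181E control 6 of the 10 were lower and 0 higher, with a median of -0.69 against -0.18 in the other 136. In Y396E 6 were lower (-0.71 against -0.18). Of all genes 15.2% were lower in S181E control and 14.0% in Y396E control. CASC19 and LNCOC1, named above, are among the 10. Other genes of chromosome 8 were not set beside them, so a trait of lncRNAs there is not shown. In RQ control 0 of the 10 were called, with a median of 0.14, where 0.935% of all genes were higher and 0.411% lower.

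Of the higher members, LNCAROD (ENSG00000231131.10, chromosome 10, 52450874 to 52755509, minus strand) stood farthest apart. Its control libraries were at 1.78, 0.973 and 1.80 CPM in WT, 21.9, 20.7 and 22.3 in S181E and 20.3, 19.2 and 23.1 in Y396E, and parental control was at 8.09. It was over 10 CPM only in S181E and Y396E, and it was higher there by 3.81 ± 0.21 and 3.76 ± 0.21. LINC02331 (chromosome 14, 53685139 to 53850882, minus strand) was higher by 1.85 ± 0.16 and 1.85 ± 0.16. BMP4, a secreted growth factor whose gene lies 98854 bases upstream of it on the same strand, was higher by 1.61 ± 0.07 and 1.60 ± 0.07. MIR4435-2HG was at 7.58, 9.89 and 8.05 CPM in WT control and 18.5, 16.7 and 17.2 in S181E (1.04 ± 0.12), and CYTOR was higher by 0.71 ± 0.10 in S181E and 0.62 ± 0.11 in Y396E. Both of the last lncRNAs carry the miR-4435 sequence shown above in near-identical copies on chromosome 2, so reads that fit both were not counted for either. LINP1 (0.86 and 0.81) and LINC00511 (0.33 and 0.31) were higher as well. Like LNCAROD, the members LINC02331, MIR4435-2HG and LINP1 were over 10 CPM only in S181E and Y396E. The choice of members in part set their differences.

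**Figure D3:**
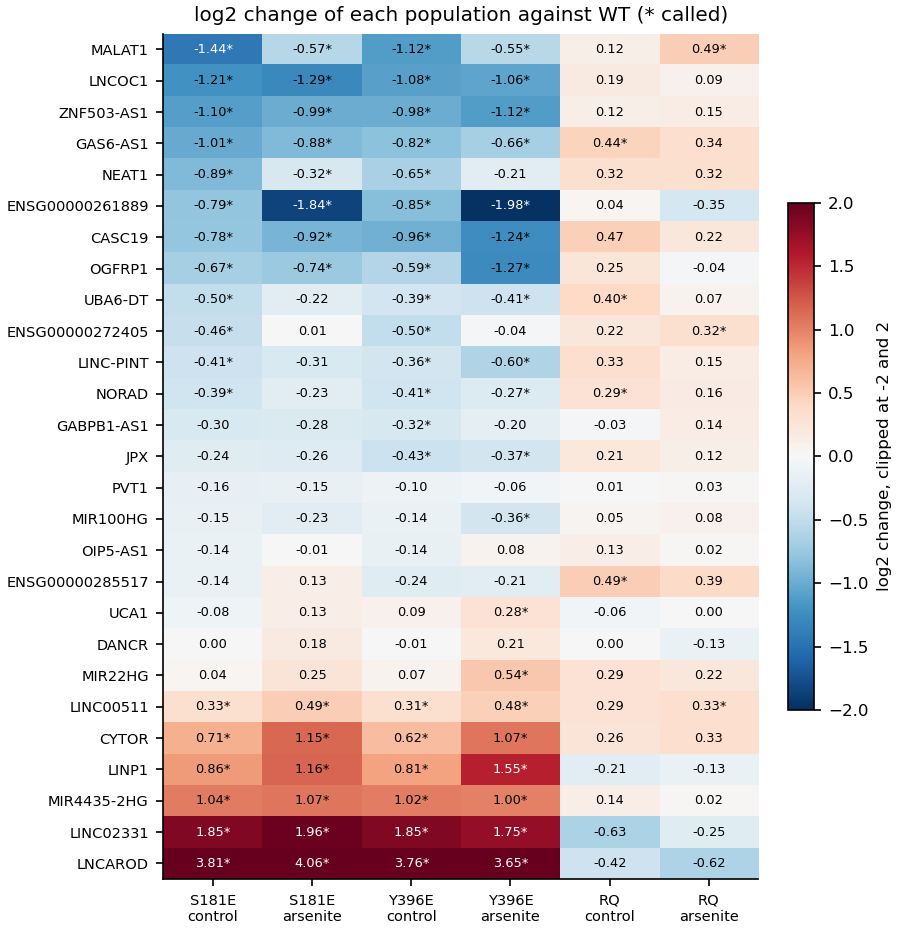
log2 difference of each mutant population from WT in control and arsenite cells (columns) for 27 lncRNAs (rows), in blue where lower and red where higher, with colours clipped at -2 and 2 and a star where called (adjusted p under 0.05 and fold over 1.2, n = 3 libraries per group). The S181E and Y396E columns run from -1.98 to 4.06, and the RQ columns from -0.63 to 0.49.

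RQ cells differed from WT at few lncRNAs. In control 5 members were higher and 0 lower (median 0.12), where 0.935% of all genes were higher and 0.411% lower. The 5 were NORAD (0.29 ± 0.05), ENSG00000285517 (0.49 ± 0.10), LINC00963 (0.29 ± 0.07), UBA6-DT (0.40 ± 0.10) and GAS6-AS1 (0.44 ± 0.11), and the calls of the last pair were lost under several alternatives. NORAD was at 339.8, 329.7 and 364 CPM in RQ control, above the 3 WT control libraries. The count rose to 19 (18 higher, 1 lower) without Y396E arsenite replicate 3, which changes the shared estimate of spread. All genes called rose too, from 131 to 306 of 9735 (202 higher). Members called, with no share of all genes given for these fits, fell to 0 without WT control replicate 1 and 1 without RQ control replicate 2. They were 2 without RQ control replicate 3 and 3 without WT control replicate 3. On plain library totals 2 were higher and 1 lower, beside 43 higher and 92 lower of all 9735 genes. A replicate block gave 7. After arsenite 3 members were higher and 0 lower (median 0.07), against 1.33% and 0.154% of all genes. They were MALAT1 (0.49 ± 0.11), LINC00511 (0.33 ± 0.09, also lost under several alternatives) and ENSG00000272405 (0.32 ± 0.07). Without WT arsenite replicates 1 or 3 or RQ arsenite replicates 2 or 3 the count was 1, without Y396E arsenite replicate 3 it was 8, on plain totals it was 1, and with a replicate block it was 3. On plain totals 74 of all tested genes were higher and 21 lower. Without Y396E arsenite replicate 3, 245 of all 9735 genes were called (196 higher), against 144 in the main fit.

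After arsenite, S181E differed from WT at 35 members and Y396E at 56. In S181E 14 were higher and 21 lower (median -0.02), where 5.62% of all genes were higher and 8.66% lower. In Y396E 23 were higher and 33 lower (-0.07), against 10.3% and 12.5%, and 20 and 31 without Y396E arsenite replicate 3. Without that replicate S181E, fitted together with it, had 22 higher and 31 lower. Of all 9735 genes, 1643 were called in S181E (639 higher) and 1917 in Y396E (810 higher) without it. On plain library totals the split turned to 19 higher and 16 lower in S181E and was 26 and 27 in Y396E. Of all 9735 genes, 885 were then higher and 600 lower in S181E, and 1276 and 931 in Y396E. LNCAROD (4.06 and 3.65), LINC02331 (1.96 and 1.75), LINP1 (1.16 and 1.55) and CYTOR (1.15 and 1.07) were higher in S181E and Y396E. ENSG00000261889 (-1.84 and -1.98), LNCOC1 (-1.29 and -1.06), ZNF503-AS1 (-0.99 and -1.12), OGFRP1 (-0.74 and -1.27) and CASC19 (-0.92 and -1.24) were lower. LNCAROD, LINC02331 and LINP1 were over 10 CPM only in S181E and Y396E, and ENSG00000261889, LNCOC1 and ZNF503-AS1 only in WT and RQ. The choice of members in part set the differences of these genes.

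The arsenite response itself was then compared between populations with an interaction term. In S181E the change was above that of WT for 11 members and below it for 1 (median difference 0.15), where 6.26% of all genes were above and 9.34% below. In Y396E it was above for 14 and below for 1 (0.13), against 9.63% and 10.9%, and above for 16 and below for 2 without Y396E arsenite replicate 3. Without that replicate 2272 of all 9735 genes were called, 1015 of them above. On plain library totals the numbers were 5 and 2 in S181E and 7 and 6 in Y396E. Of all 9735 genes, 140 were then above and 2497 below in S181E, and 280 and 2507 in Y396E. The members' median stayed 0.18 above that of all genes in S181E under both scalings. In Y396E it was above by 0.15 on scaled and 0.16 on plain totals. In RQ 0 members differed, with 2 at an unadjusted p under 0.05 by edgeR and 2 by DESeq2, which also called 0, and 0.205% and 0.0% of all genes were called above and below. A difference above 0 means a stronger rise for MALAT1 and TBC1D22A-DT, and a smaller fall for NEAT1 and LINC00370.

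TBC1D22A-DT had the largest positive difference, 1.13 ± 0.21 in S181E (edgeR adjusted p = 0.00122) and 1.18 ± 0.21 in Y396E (0.000635). Without Y396E arsenite replicate 3 the latter was 1.03. MALAT1, whose control level was lower in both populations, differed by 0.87 ± 0.15 in S181E and 0.57 ± 0.15 in Y396E, the latter 0.49 without that replicate. ENSG00000261889 was the member with the smaller rise, at -1.06 ± 0.29 and -1.13 ± 0.30, the latter -1.11 without it. As it was over 10 CPM only in WT and RQ arsenite libraries, the choice of members favoured these differences. NEAT1 (0.57 and 0.44), LINC00370 (0.58 and 0.63) and ENSG00000272405 (0.47 and 0.46) were above WT in S181E and Y396E, with NEAT1 at 0.29 in Y396E without that replicate. TMEM147-AS1 was called in S181E (0.59 ± 0.18, lost under several alternatives) and CYTOR in Y396E (0.45 ± 0.15). MINCR (0.83 ± 0.23), ENSG00000278291 (0.71 ± 0.16) and LINP1 (0.74 ± 0.25) were called in Y396E, and without replicate 3 they were at 0.55, 0.56 and 0.48, the last no longer called (adjusted p = 0.0592). MINCR was at 7.81, 8.91 and 13.7 CPM in Y396E arsenite, and ENSG00000278291 at 7.40, 6.62 and 9.14. The replicate with the fewest genes was the highest of the 3 for both.

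The members lay at very different distances from the nearest coding gene on their own strand. Of the 146, 10 overlapped such a gene and 136 did not, at 289 to 1176054 bases with a median of 51276.5. The coding gene lay upstream of 76 members and downstream of 60, and 69 members overlapped a coding gene on the other strand. The closest was C10orf95-AS1, 289 bases from MFSD13A, and the farthest was ENSG00000234147. Falls with arsenite were frequent at every distance. In WT 21 of the 26 members within 10 kb were lower and 2 higher (median -0.85). Between 10 and 100 kb 60 of 77 were lower and 5 higher (-0.60), beyond 100 kb 23 of 33 were lower and 2 higher (-0.55), and of the 10 that overlapped 7 were lower and 0 higher (-0.51).

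**Figure D4:**
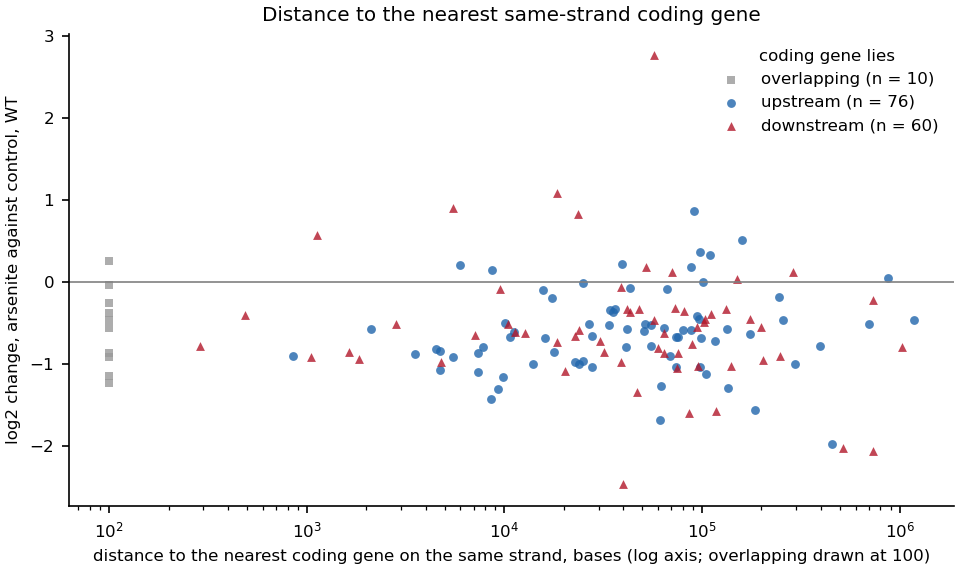
log2 change with arsenite in WT cells (y axis) of each of the 146 lncRNAs against the distance in bases from its gene to the nearest coding gene on the same strand (x axis, log scale), with the marker giving the side on which the coding gene lies and the 10 overlapping genes drawn at 100. Values below 0 predominate at all distances.

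The nearest coding gene was itself tested for 89 members. In WT 33 of these coding genes were lower and 29 higher with arsenite (median -0.12), whereas their lncRNAs had a median of -0.66. Both were called for 51 pairs, 29 of them in the same direction, and Pearson's r over the 89 pairs was 0.22, given as a description. NEAT1 fell while FRMD8, 9249 bases upstream, was at -0.49 ± 0.07. SCAND1, 86146 bases from NORAD, was at -0.46 ± 0.07, and MYC, 51586 bases upstream of PVT1, at -0.97 ± 0.05. LINC00511 (-0.92) fell as did the zinc transporter gene SLC39A11 (-0.79), 5477 bases upstream. ENSG00000272405 fell (77.5 ± 1.63 to 38.6 ± 0.799 CPM) while the intermediate filament gene NES, 23876 bases away, rose (2.12 ± 0.18).

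On the other strand, 45 members started within 1000 bases of the start of a coding gene, head to head. Of these 31 were lower and 5 higher with arsenite in WT (median -0.51). For the 35 pairs with a tested coding gene, that gene was higher in 12 and lower in 14, with a median of 0.03. Both were called in 24 pairs, 16 of them in the same direction (r = 0.42 over 35 pairs, a description). ZFAND2A, a heat-inducible regulator of the proteasome, rose by 2.01 ± 0.08 in WT, whereas ZFAND2A-DT was at -0.08 ± 0.10. UBA6, a ubiquitin-activating enzyme, rose by 1.54 ± 0.07 and UBA6-DT fell (-0.41 ± 0.10). MIR22HG and WDR81 rose together (0.58 and 0.77), TMEM147-AS1 and TMEM147 fell together (-0.82 and -1.14), and TBC1D22A-DT rose (0.83) with TBC1D22A at 0.09 ± 0.07. Between S181E and WT control, 9 head-to-head pairs had both genes called, 8 of them in the same direction (r = 0.53). Reads were counted by strand, so the genes of a pair do not share reads.

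**Figure D5:**
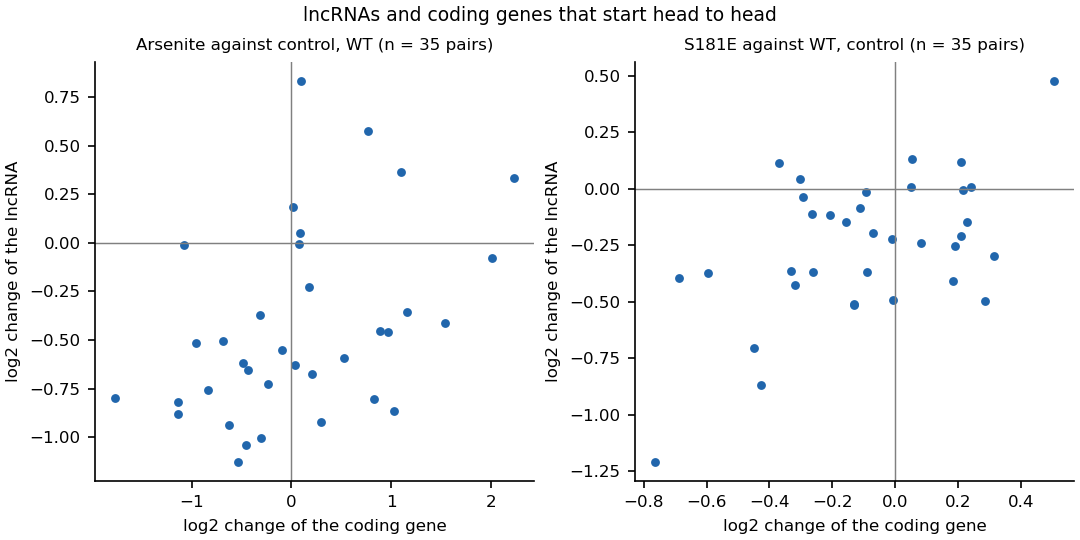
log2 change of the lncRNA (y axis) against that of the coding gene that starts within 1000 bases on the other strand (x axis), for arsenite in WT cells on the left and for S181E against WT control on the right, with 1 point per pair (35 pairs). On the left 24 pairs have both genes called, and on the right 9 do.

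For 41 members with a symbol taken from a tested coding gene, that gene was higher in 14 and lower in 15 with arsenite in WT, while the members had a median of -0.59. Both were called in 23 pairs, 11 of them in the same direction, with r = 0.03. ZNF503-AS1 was lower in S181E and Y396E control than in WT, whereas ZNF503, a zinc finger repressor gene, was at 0.47 ± 0.11 and 0.52 ± 0.11. GAS6-AS1 changed by -0.03 ± 0.12 with arsenite in WT and was called in none of the 4 populations.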

How the data were processed

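Poly(A) RNA from cleared lysates, the input of an immunoprecipitation, was sequenced from 26 libraries, and the immunoprecipitated libraries were not analysed here. Per the file headers and the submitters' notes, the authors aligned reads to hg38 with STAR 2.7.11b and deposited raw counts per gene from featureCounts 2.0.6 (reverse strand, uniquely assigned reads) on GENCODE 46 basic genes. Gene types came from a reference table that matched 62541 of 63086 identifiers. CPM were computed from the counts, on plain totals for the choice of members and for parental libraries, otherwise on totals scaled by TMM factors (0.819 to 1.11).

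Genes of all types over 10 CPM in at least 3 of 24 libraries (9735 genes) were fitted with edgeR 4.0.16 (R 4.3.3; glmQLFit, glmQLFTest, Benjamini-Hochberg over all tested genes) with 1 mean per group, 8 groups and 16 residual degrees of freedom. A call needed an adjusted p under 0.05 and a fold over 1.2. Changes are log2 ± SE, and the median SE was 0.080 between groups and 0.112 for differences of responses. Replicates are separately plated dishes of 1 population, and no replicate pair was identical. The script was tested on simulated counts. DESeq2 1.42.0, other scalings and filters, each library left out and a replicate block were tried as alternatives. Same-numbered libraries correlated at -0.047 to 0.49. Every pair exceeded 0.1 only between RQ and WT, so the numbers may pair the samples in these comparisons. Correlations of different-numbered libraries are not given, so pairing is not shown. The main fit ignored the numbers, and counts with a replicate block are given beside it. Distances are gaps between gene spans of the count files. The result for 1 neighbouring gene is not reported here.

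Members named were well-known lncRNAs of a list, the 5 called members that rose or fell most with arsenite and the 3 in other comparisons among those whose groups did not overlap, the 5 highest per kb, and their neighbours. Members, lists and this rule were chosen with earlier results of these data known.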

Additional observations from a re-analysis of the deposited data

Results flagged for a closer look

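The arsenite response differed between S181E and WT cells for 12 members (11 above, 1 below), by a test of the interaction itself. Of all genes 6.26% were above and 9.34% below, so members were not called more often than genes at large. The members named by rule were TBC1D22A-DT (log2 difference 1.13), MALAT1 (0.87), TMEM147-AS1 (0.59) and ENSG00000261889 (-1.06). In Y396E the response differed from that of WT for 15 members (14 above, 1 below), where 9.63% of all genes were above and 10.9% below. Among the members were TBC1D22A-DT (1.18), MINCR (0.83), ENSG00000278291 (0.71) and ENSG00000261889 (-1.13). The values of MINCR and ENSG00000278291 were 0.55 and 0.56 without Y396E arsenite replicate 3. ENSG00000261889 was over 10 CPM only in WT and RQ arsenite libraries, so the choice of members favoured its negative differences. Groups of 3 libraries are too small for a test of single outlying libraries.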

How the results depend on the processing

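Over 91 calls of 38 named members and 3141 values under alternatives, 0 reversed, 29 calls were lost at a fold over 2, and 68 of the other 3050 values lost the call. The calls of GAS6-AS1 and UBA6-DT in RQ control, LINC00511 in RQ arsenite and the response of TMEM147-AS1 in S181E were lost most often. The counts of members called that follow are given without the share of all genes under the same setting. They show how far calls depend on the processing, not how members compare with all genes. At a fold over 2 the members called with arsenite numbered 31 (WT), 21 (S181E), 24 (Y396E) and 33 (RQ). Against WT they numbered 8, 5 and 0 in S181E, Y396E and RQ control and 7, 11 and 0 after arsenite, and for the responses of S181E and Y396E 2 each. RQ control had 3 members called on library totals, 3 with a filter at 1 CPM and 9 with DESeq2, and 0 to 19 with 1 library left out. RQ arsenite had 1 on library totals, 15 when only its groups were fitted and 6 with DESeq2, and 1 to 8 with 1 library left out. S181E arsenite had 23 with the filter at 12 libraries, where fewer members are tested, 53 when only its groups were fitted and 28 to 53 with 1 library left out, the highest without Y396E arsenite replicate 3. Y396E arsenite had 29 when only its groups were fitted. The response of S181E had 7 on library totals, 7 without a filter, 26 in its own groups and 7 to 24 with 1 library left out (7 without WT arsenite replicate 2, 24 without Y396E arsenite replicate 3). The response of Y396E had 7 in its own groups and 10 to 27 with 1 library left out (25 without Y396E arsenite replicate 1, 27 without replicate 2). The response of RQ had 1 without a filter. Except where the construction shows it, the cause was not tested. With a limit of 5 or 20 CPM there were 316 or 60 members. The replicate block gave 121, 107, 119 and 120 members with arsenite in WT, S181E, Y396E and RQ, and 60, 50, 39 and 56 for S181E and Y396E against WT in control and then in arsenite. It gave 14 and 16 for the responses. In the comparisons of groups given here with the block, not every same-numbered pair correlated above 0.1. The median SE limits calls to differences well above 0.080 between groups.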
